A study of Mus musculus with 84 samples.

Results

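The expression of 10 genes of sphingolipid synthesis was followed in the liver and the inguinal adipose tissue (IAT) of diabetic db/db mice. The genes were Sptlc1, Sptlc2 and Sptlc3, which encode subunits of serine palmitoyltransferase, Ormdl1, Ormdl2 and Ormdl3, its inhibitors, the ceramide synthases Lass2, Lass4 and Lass6 (now named Cers2, Cers4 and Cers6), and the desaturase Degs1. They were taken by gene name from the annotation of the arrays, which holds 28599 names, and all 10 were found. They are carried by 16 of 41174 sequences (60-mer probes on the array). The set was selected on the high values of Sptlc3 in IAT, so these are given as a description with no test. For a gene with several sequences the brightest stands for the gene, and 1 sequence of Ormdl1 was above background on none of the 72 arrays of either tissue.

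The mice were males of the BKS Cg-m+/+ Leprdb/J strain, 8 weeks old when obtained, which lack a functional leptin receptor. They received rosiglitazone (RSG) or a compound labelled only S for 18 days at 28, 84 or 280 µmol/kg, with 6 mice sampled in each of the 12 groups of tissue, compound and dose. RSG was given by mouth. The strain, sex, age, route and vehicle are those the methods give for the RSG study, which does not describe the S mice. RSG is a thiazolidinedione, an agonist of the nuclear receptor PPARγ that is used as an insulin sensitiser. S is known only by its letter, and nothing is said of its structure. The RNA of each mouse was hybridised against a pool of RNA from 6 db/db mice given vehicle alone, with 1 pool per tissue. Each was run on a pair of 2-colour arrays with the dyes exchanged. All groups, the pools included, carry the db/db mutation, and the data of lean mice were not used here. Values are given as log2 of treated mouse over pool, so that 0 is the level of the pool. Each pool counts as 1 control sample, and no test holds the spread between the mice pooled in it. Each sample is a piece of whole tissue, in which a lower share of the cells that express a gene and less RNA per cell cannot be told apart.

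Over the 144 arrays of the 72 treated tissues, the channel of the mouse was well above background for 61.8 to 78.2% of the sequences in IAT and for 43.4 to 65.8% in liver. The arrays were scanned on 6 days per tissue, and some days held only 1 group. The number of arrays limits the precision of every value. Of the hepatocyte markers, Alb was above background on 72 of 72 arrays in both tissues, with a median signal of 1971 in IAT and 499730 in liver, and Ttr on 1 of 72 IAT arrays. Of the other hepatocyte markers, Tat, Apoa2 and Fgb were above background in the mouse channel on 72, 71 and 66 of 72 IAT arrays. Cps1, Hnf4a and Apoa1 were so on 31, 21 and 20. All adipocyte markers were above background in that channel on all 72 IAT arrays. In liver, Adipoq, Plin1 and Lep were so on 27, 23 and 0 of 72 arrays. Cidec, Fabp4, Lpl, Pparg and Lipe were so on all 72 liver arrays.

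Sphingolipids are built on a sphingoid base that serine palmitoyltransferase makes from serine and a fatty acyl-CoA, which is the first and rate-limiting step. Sptlc1 is the constant subunit and pairs with Sptlc2 or Sptlc3; enzyme with Sptlc3 also accepts shorter acyl chains. The membrane proteins of the ORMDL family bind the enzyme and restrain it when ceramide is plentiful. Ceramide synthases then attach a second fatty acid, each with its own choice of chain length: Lass2 prefers very long chains and Lass6 prefers palmitoyl-CoA. Degs1 finally introduces the double bond that turns dihydroceramide into ceramide. In fat and liver, ceramides have long been studied for their link with insulin resistance.

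The stretches before the start sites of 3 of the genes are shown because these genes had the largest changes of the set. RefSeq windows of 250 bases upstream of the annotated start (GRCm38.p6) were found for all 10 genes, 11 windows in all because Lass2 has a second start. Bases are written in the direction of the gene, and capitals mark every CG dinucleotide.
Sptlc3, chr2:139493663-139493912, plus strand: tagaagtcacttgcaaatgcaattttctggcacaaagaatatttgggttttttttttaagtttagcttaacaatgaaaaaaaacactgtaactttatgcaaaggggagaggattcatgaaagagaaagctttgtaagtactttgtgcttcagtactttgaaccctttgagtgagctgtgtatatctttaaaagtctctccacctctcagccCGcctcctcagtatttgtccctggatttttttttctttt
Sptlc2, chr12:87388356-87388605, minus strand: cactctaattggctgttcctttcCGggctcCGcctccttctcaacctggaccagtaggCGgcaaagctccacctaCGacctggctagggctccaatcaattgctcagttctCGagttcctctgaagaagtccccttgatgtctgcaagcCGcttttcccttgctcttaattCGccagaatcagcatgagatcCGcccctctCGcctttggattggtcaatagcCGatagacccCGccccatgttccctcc
Lass6, chr2:68861191-68861440, plus strand: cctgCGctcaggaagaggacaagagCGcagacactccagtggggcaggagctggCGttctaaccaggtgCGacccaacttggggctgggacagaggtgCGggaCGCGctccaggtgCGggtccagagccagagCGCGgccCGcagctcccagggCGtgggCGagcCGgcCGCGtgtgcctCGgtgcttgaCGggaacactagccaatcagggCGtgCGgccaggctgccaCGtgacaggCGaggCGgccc
The Sptlc3 window held 35.6% G and C and 1 CG dinucleotide, against 55.2% and 11 for Sptlc2 and 70.4% and 23 for Lass6. Over all 32851 windows of that length the median was 52.4% and 6 CG dinucleotides, and 5.81% of the windows had as little G and C as Sptlc3 or less. The windows of the other 9 genes held 54.0 to 74.8% G and C and 5 to 25 CG dinucleotides. Of the motifs searched on both strands, CCAAT was present in 6 of 11 windows (33.8% of all windows) and GGGCGG in 7 of 11 (32.7%). The nuclear receptor element AGGTCA was in 1 of 11 (14.0% of all), the second start of Lass2, its direct repeat with a spacer of 1 base (DR1) in 0 (0.0335%), and TATAAA in 0 (12.4%). None of these letters were found in the Sptlc3 window. A match or its absence describes the letters of these windows only.

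In IAT, the Sptlc3 sequence (NM_175467, at chr2:139317296-139317355 of the mm8 build, plus strand) was higher than in the pool in all 36 mice. With RSG the 6 mice lay between 1.27 and 2.83 (median 1.90) at 28 µmol/kg, between 3.05 and 3.94 (median 3.35) at 84 µmol/kg and between 4.00 and 4.59 (median 4.20) at 280 µmol/kg. The 3 RSG groups did not overlap with one another. With S the mice lay between 1.18 and 2.08 (median 1.58) at 28 µmol/kg, between 2.95 and 3.83 (median 3.28) at 84 µmol/kg and between 4.52 and 5.00 (median 4.66) at 280 µmol/kg. These groups did not overlap with one another either. The means correspond to 3.93, 10.8 and 18.8 times the pool with RSG and to 3.09, 10.1 and 26.0 times the pool with S. At each dose the ranges of RSG and S overlapped in IAT, with means that differed by 0.35, 0.11 and -0.47 (RSG minus S). The sequence was well above background in both channels on all 72 arrays. Within the scan day that held 4 mice each of 28 and 84 µmol/kg RSG the means were 1.94 and 3.46, and within that which held 2 mice of 28 and 6 of 84 µmol/kg S they were 1.61 and 3.33. A further scan day held 2 mice of 84 and 6 of 280 µmol/kg RSG, with means of 3.40 and 4.24, and 4 mice of 28 µmol/kg S, with a mean of 1.63. With normexp correction and loess in place of the deposited ratio the means were 1.61, 2.84 and 3.85 with RSG and 1.31, 2.92 and 4.33 with S.

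The levels of the single channels show the same order. After background correction and normalisation of each channel, the pool averaged 7.92 ± 0.30 on the log2 scale over its 36 IAT pairs of arrays (SD). RSG mice averaged 9.36 ± 0.58, 10.81 ± 0.46 and 11.76 ± 0.38, and S mice 9.05 ± 0.35, 10.69 ± 0.33 and 12.75 ± 0.50 (SD, n = 6 each), from the low to the high dose. Here every dose group lay above the highest pool value of 8.62, including the lowest S 28 mouse at 8.64. In liver the same sequence was near the lower end of the scale, with 7.04 ± 0.12 for the pool (SD, n = 36 pairs). Liver levels were 7.19 ± 0.08, 7.24 ± 0.19 and 7.20 ± 0.13 with RSG and 7.05 ± 0.11, 7.19 ± 0.05 and 7.91 ± 0.43 with S. The S 280 µmol/kg livers, between 7.54 and 8.72, were the one liver group whose mice all lay above the highest pool value of 7.27.

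**Figure D1:**
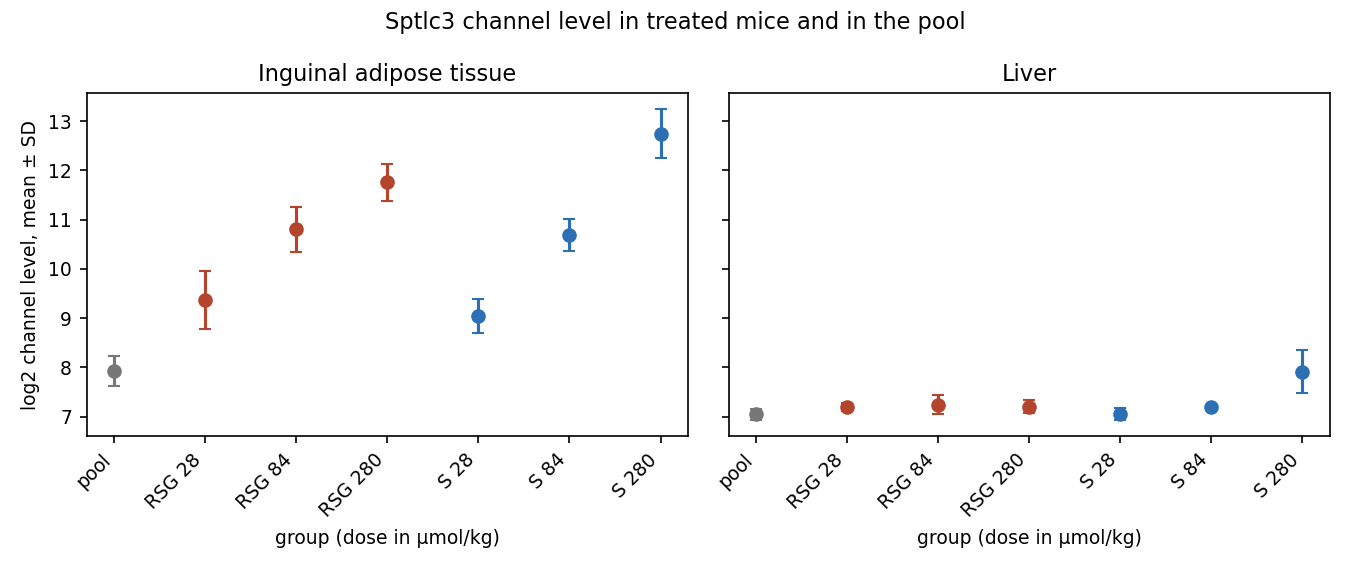
Normalised log2 channel level of the Sptlc3 sequence in IAT (left) and liver (right), for the pool and for mice given RSG or S at 28, 84 and 280 µmol/kg; points are group means and bars are SD (n = 6 mice, or 36 array pairs for the pool). IAT means run from 7.92 in the pool to 12.75 at 280 µmol/kg S, while liver means stay between 7.04 and 7.24 except for 7.91 at 280 µmol/kg S.

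Liver Sptlc3 was measured on a dim sequence, above background in the mouse channel on 44 of 72 arrays and in the pool channel on 15 of 72. It entered the fit through the mouse channel alone, the side on which it was high, so its liver values are given as a description with no test. The ratio was above 0 in 35 of 36 livers. RSG livers lay between 0.81 and 1.60 (median 1.12) at 28 µmol/kg, between 0.49 and 2.30 (median 0.92) at 84 µmol/kg and between 0.35 and 1.64 (median 1.01) at 280 µmol/kg. These 3 groups overlapped throughout. S livers lay between 0.18 and 1.16 (median 0.63), between -0.08 and 1.72 (median 1.13) and between 1.20 and 3.32 (median 2.38) at the same doses. The S 280 µmol/kg group stood above all S 28 µmol/kg livers and overlapped with the S 84 µmol/kg group. The means were 1.17, 1.08 and 1.02 with RSG and 0.62, 1.02 and 2.25 with S.

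The depth of this measurement was low. The channel of the mouse was above background on 6, 5 and 6 of 12 arrays in the RSG groups and on 6, 9 and 12 of 12 in the S groups, and that of the pool on 1, 2, 1, 4, 5 and 2 of 12 on the same arrays. With normexp correction and loess in place of the deposited ratio, the liver means were 0.15, 0.19 and 0.17 with RSG and 0.08, 0.14 and 0.79 with S. With scan day as a block the RSG means were 0.70, 0.45 and 0.66. Repeat hybridisations of liver RNA varied by an SD of 0.55 for this sequence at 28 µmol/kg RSG (0.24 to 1.77, n = 6), against 0.31 between the 6 mice. At 28 µmol/kg S the SD of repeats was 0.18 (1.09 to 1.54, n = 6), against 0.35 between the mice. The median SD of repeats over the 10 genes was 0.04 with RSG and 0.05 with S.

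Sptlc2, the usual partner of Sptlc1, rose in liver with both compounds. RSG livers lay between 0.65 and 1.18 (median 0.94), between 0.85 and 1.3 (median 0.92) and between 0.73 and 1.09 (median 0.88) at 28, 84 and 280 µmol/kg. S livers lay between 0.56 and 0.75 (median 0.62), between 0.71 and 0.97 (median 0.77) and between 1.10 and 1.5 (median 1.25). All 36 livers were above the pool, and the S 280 µmol/kg livers stood clear of both lower S doses. Mean levels were 1.91, 1.99 and 1.88 times the pool with RSG (adjusted p = 4.6e-15, 9.5e-16 and 1.2e-14) and 1.55, 1.75 and 2.41 times the pool with S (adjusted p = 9.0e-11, 1.7e-13 and 6.8e-19, limma, adjusted over all 25254 liver sequences tested). A second sequence of the transcript gave 0.93, 0.93 and 0.90 with RSG and 0.57, 0.73 and 1.24 with S. The dimmest of its sequences gave 0.67, 0.70 and 0.41 with RSG and 0.48, 0.65 and 0.65 with S. All 3 sequences were thus higher than the pool in every liver group. For the brightest one, repeat hybridisations of 28 µmol/kg liver RNA averaged 0.55 with RSG and 0.43 with S (n = 6 each), lower than every mouse of those groups.

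In IAT, Sptlc2 moved little, and its sequences disagreed. The brightest one (NM_011479, at chr12:88198871-88198930 of mm8, minus strand) averaged -0.09 at each RSG dose (SE 0.04 each, adjusted p = 0.037, 0.028 and 0.026) and -0.15, -0.13 and -0.11 with S (adjusted p = 7.2e-04, 0.0020 and 0.0044). The dimmest sequence was higher than the pool in the same tissues, with 0.24, 0.42 and 0.37 at the RSG doses and 0.21, 0.38 and 0.68 at the S doses. With the mean of the 3 sequences the sign turned to 0.02, 0.11 and 0.08 with RSG and to 0.04 and 0.15 at the upper S doses, so no direction is given for Sptlc2 in IAT. Calls of each RSG dose were lost on leaving out 1 mouse: without mouse 1, 3 or 4 at 28 µmol/kg the mean was -0.08, -0.09 or -0.07 (adjusted p = 0.12, 0.061 and 0.14). Without mouse 3 or 6 at 84 µmol/kg it was -0.06 (adjusted p = 0.14 each), and without mouse 1, 2 or 6 at 280 µmol/kg it was -0.08, -0.09 or -0.07 (adjusted p = 0.088, 0.052 and 0.095).

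Sptlc1, the shared subunit, was slightly higher in both tissues with both compounds. IAT means were 0.21, 0.24 and 0.29 with RSG and 0.23, 0.22 and 0.35 with S (SE 0.04 each), and liver means were 0.30, 0.29 and 0.26 with RSG and 0.24, 0.26 and 0.30 with S (SE 0.04 each). All 72 values were above the pool, with adjusted p between 2.1e-08 and 2.5e-04 over the 12 groups (limma). The ranges of the 12 groups overlapped, and none of the dose or compound differences of this gene was called. A block for scan day gave IAT means of 0.21 and 0.15 at 28 µmol/kg RSG and 84 µmol/kg S (adjusted p = 0.18 and 0.23). With the mouse in Cy5 only, these means were 0.10 and 0.06 (adjusted p = 0.056 and 0.25), and the liver mean at 28 µmol/kg S was 0.10 (0.053). Why the dye orientations of a pair differed was not tested. The rise was thus 15.9 to 27.9% of the pool level, against the many-fold values of Sptlc3 in the same IAT samples.

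**Figure D2:**
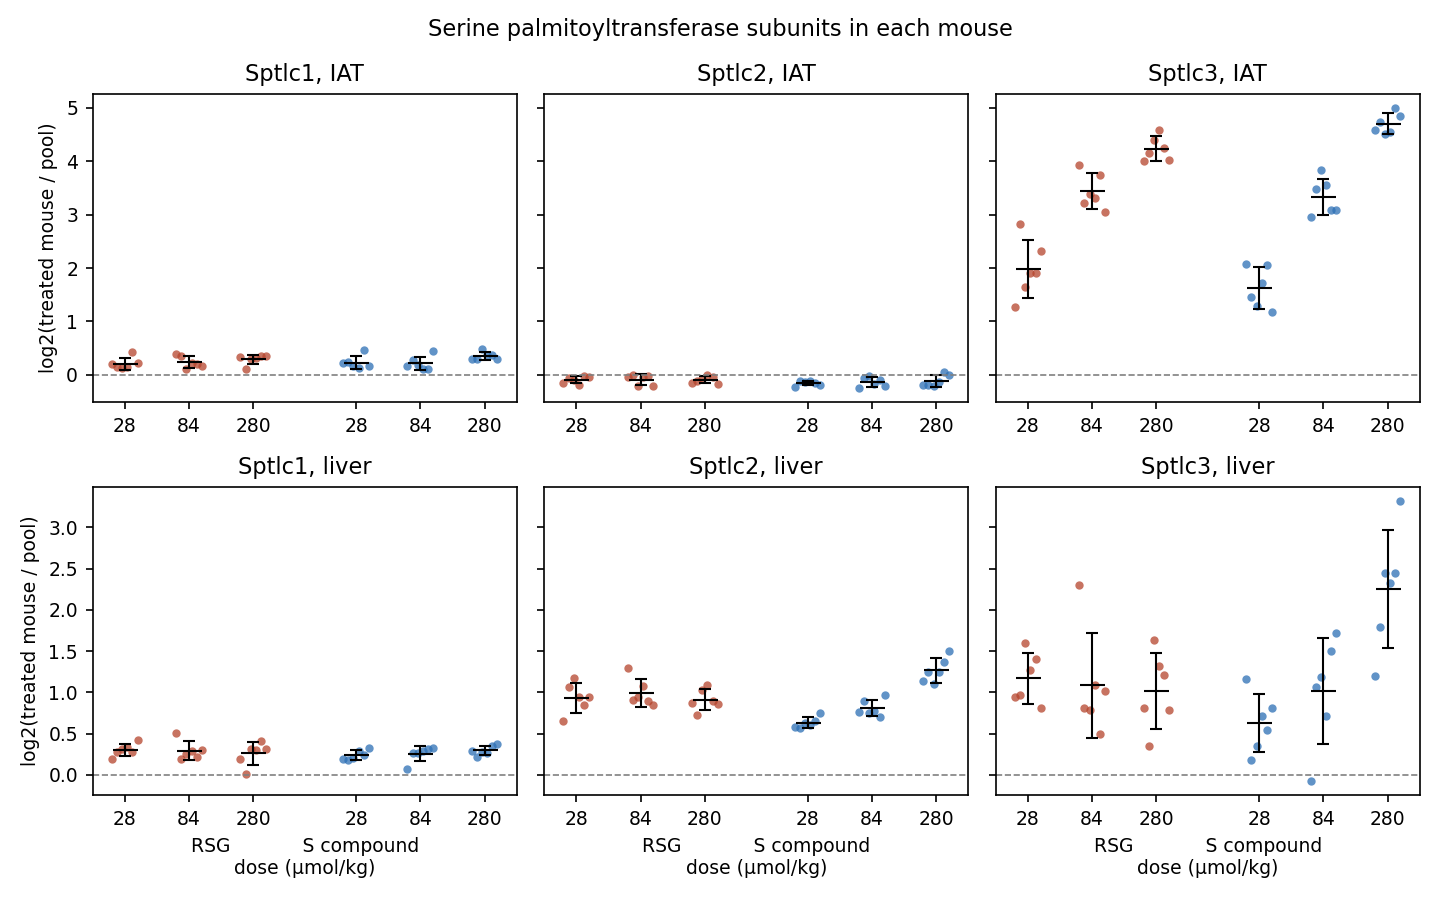
Log2 of treated mouse over pool for Sptlc1, Sptlc2 and Sptlc3 in IAT (top) and liver (bottom), by dose of RSG and of S; points are mice, bars are mean ± SD (n = 6), and the line at 0 is the pool. Sptlc3 climbs with dose in IAT, to 4.24 with RSG and 4.70 with S, while Sptlc2 stays near 0 in IAT and lies between 0.63 and 1.27 in liver.

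Among the inhibitors, Ormdl3 separated the compounds in liver at 280 µmol/kg. RSG livers lay between 0.05 and 0.45 (median 0.13), between -0.01 and 0.24 (median 0.14) and between 0.00 and 0.17 (median 0.08) at the 3 doses. S livers lay between -0.05 and 0.05 (median 0.01), between -0.28 and -0.05 (median -0.14) and between -0.57 and -0.17 (median -0.45). The S 280 µmol/kg livers were all lower than every RSG liver at that dose. Means were 0.17, 0.13 and 0.08 with RSG (adjusted p = 7.2e-04, 0.0085 and 0.092) and 0.01, -0.14 and -0.43 with S (adjusted p = 0.84, 0.0070 and 1.1e-10, limma). The single dye orientations lay on either side of these balanced means: the RSG means were -0.06, -0.12 and -0.16 with the mouse in Cy5 only and 0.41, 0.38 and 0.33 with the mouse in Cy3 only, and the S 84 µmol/kg mean was -0.40 and 0.13. The S 280 µmol/kg mean kept its call in both orientations. Blocked by scan day, 28 µmol/kg RSG had 0.08 (adjusted p = 0.24) and 84 µmol/kg S -0.01 (0.90). Repeat hybridisations of 28 µmol/kg S liver RNA averaged -0.12 (-0.159 to -0.0517, n = 6), below every mouse of that group (-0.0515 to 0.0476). Those of 28 µmol/kg RSG averaged 0.07 (0.04 to 0.10, n = 6).

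In IAT, Ormdl3 averaged -0.18, -0.18 and -0.20 with RSG and -0.15, -0.21 and -0.18 with S (SE 0.06 each), of which all but S 28 µmol/kg passed the test (adjusted p between 0.0059 and 0.023, and 0.059). Of the 36 IAT mice, 34 were below the pool. With the mouse in Cy5 only the 6 means lay between -0.44 and -0.37, and with the mouse in Cy3 only between 0.01 and 0.08. Calls were lost without mouse 1 or 5 at 28 µmol/kg RSG (-0.16 and -0.09, adjusted p = 0.073 and 0.23), mouse 3 at 84 µmol/kg RSG (-0.15, 0.067) and mouse 1 or 2 at 280 µmol/kg S (-0.12 and -0.14, 0.11 and 0.076), and gained without mouse 5 at 28 µmol/kg S (-0.17, 0.047). In the fit blocked by scan day the RSG means were -0.10, -0.12 and -0.21 (adjusted p = 0.70, 0.27 and 0.050).

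Ormdl1 was lower in liver and near the pool in IAT. Liver means were -0.32, -0.33 and -0.26 with RSG (adjusted p = 1.3e-06, 6.1e-07 and 2.8e-05) and -0.14, -0.16 and -0.28 with S (adjusted p = 0.013, 0.0058 and 6.4e-06), with 35 of 36 livers below the pool. Repeat hybridisations of 28 µmol/kg liver RNA, whose mouse the labels do not name, averaged 0.05 with RSG and 0.10 with S (n = 6 each). They ran from -0.03 to 0.13 and from -0.003 to 0.18, above every mouse of those groups (-0.49 to -0.14 and -0.21 to -0.03). In IAT only the S groups at 28 and 280 µmol/kg passed the test, with 0.07 and 0.12 (adjusted p = 0.040 and 2.3e-04); the first was lost without mouse 1, 2, 5 or 6 (0.08, 0.07, 0.04 and 0.07, adjusted p = 0.051, 0.078, 0.23 and 0.080). The IAT mean of 0.04 at 84 µmol/kg S was 0.07 without mouse 1 (adjusted p = 0.047), and the liver mean at 28 µmol/kg S was -0.26 with scan day as a block (0.078). Ormdl2 differed from the pool by at most 0.15 in any group. It passed the test in IAT at 28 µmol/kg RSG (0.11) and at 28 and 84 µmol/kg S (0.15 and 0.11), and in no liver group, where it ran from -0.08 to 0.06. In liver, leaving out mouse 1 at 28 or 280 µmol/kg RSG gave -0.12 and -0.11 (adjusted p = 0.0095 and 0.033), and leaving out mouse 6 at 280 µmol/kg S gave 0.09 (0.037). The RSG call was lost without mouse 1, 2, 5 or 6 (0.08, 0.11, 0.10 and 0.10, adjusted p = 0.15, 0.052, 0.051 and 0.062) and that of S 84 µmol/kg without mouse 1 (0.10, adjusted p = 0.058).

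**Figure D3:**
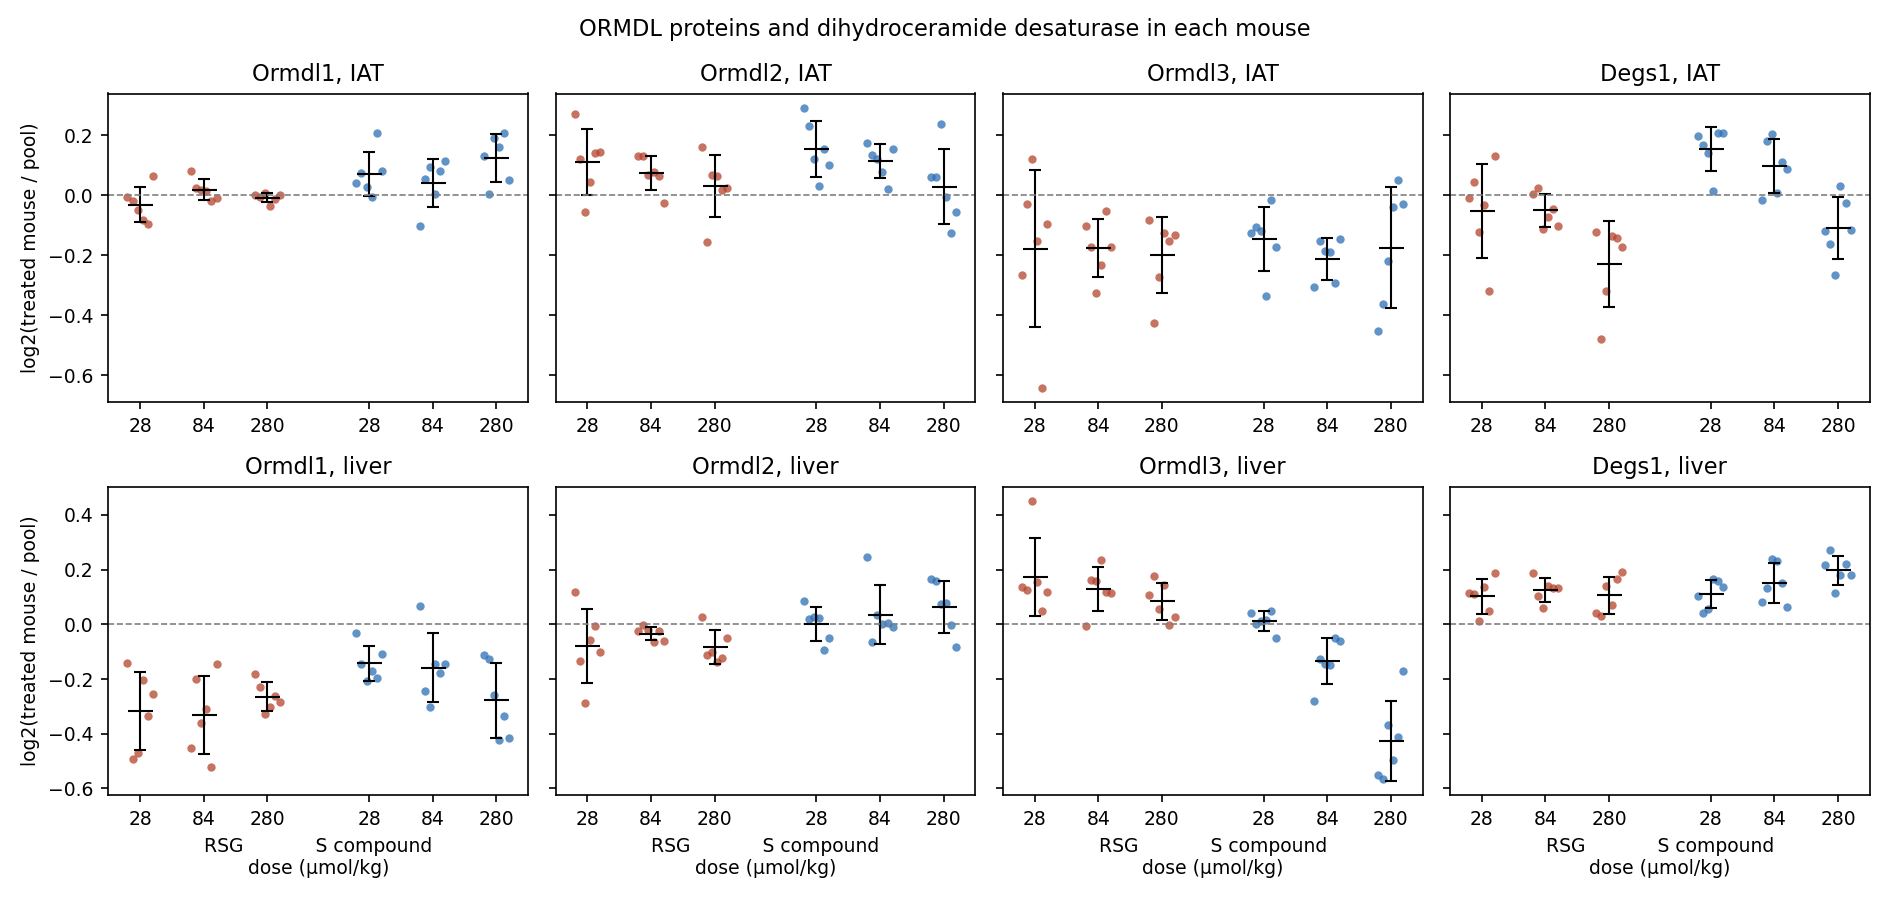
Log2 of treated mouse over pool for Ormdl1, Ormdl2, Ormdl3 and Degs1 in IAT (top) and liver (bottom), by dose of RSG and of S; points are mice, bars are mean ± SD (n = 6), and the line at 0 is the pool. Liver Ormdl3 ends at -0.43 with 280 µmol/kg S and at 0.08 with the same dose of RSG.

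Lass6 showed the largest fall of the set, in IAT. With RSG the mice lay between -1.11 and -0.58 (median -0.84) at 28 µmol/kg, between -1.44 and -0.85 (median -1.23) at 84 µmol/kg and between -1.75 and -0.97 (median -1.61) at 280 µmol/kg. With S they lay between -0.76 and -0.58 (median -0.64), between -1.34 and -0.72 (median -1.05) and between -1.84 and -1.43 (median -1.54). All 36 mice were below the pool, and the S 280 µmol/kg group lay below all mice of the lower S doses. The means were 1.77, 2.31 and 2.90 times below the pool with RSG (adjusted p = 1.9e-09, 1.1e-13 and 1.8e-16) and 1.57, 2.09 and 3.01 times below it with S (adjusted p = 1.9e-07, 4.7e-12 and 4.5e-17, limma). RSG 280 µmol/kg mouse 2, at -0.97, stood apart from the others of its group, which lay between -1.75 and -1.56. A second, dimmer sequence, above background in the mouse channel on 49 of 72 arrays, gave -0.53, -0.86 and -1.32 with RSG and -0.20, -0.70 and -1.04 with S. The values are those of NM_172856 and of the transcript AK136463, whose sequence at chr2:68914950-68915009 (mm8, plus strand) was the brighter.

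In liver, Lass6 went the other way by a smaller amount. Means were 0.28, 0.32 and 0.26 with RSG (adjusted p = 0.014, 0.0065 and 0.028) and 0.27, 0.31 and 0.17 with S (adjusted p = 0.021, 0.0084 and 0.12), with a wide spread of -0.28 to 0.65 between mice. Blocking by scan day left RSG means of 0.13, 0.06 and 0.12 (adjusted p = 0.50, 0.79 and 0.54) and the S 28 µmol/kg mean, at 0.49, lost its call (0.093), while S 280 µmol/kg had 0.32 (0.043). Calls were also lost without mouse 2 or 3 at 28 µmol/kg RSG (0.25 and 0.21, adjusted p = 0.054 and 0.090), mouse 2 or 4 at 280 µmol/kg RSG (0.22 and 0.20, 0.081 and 0.13) and mouse 1, 3, 5 or 6 at 28 µmol/kg S (0.24, 0.26, 0.22 and 0.21, 0.067, 0.053, 0.088 and 0.099). Repeat hybridisations of 28 µmol/kg S liver RNA averaged 0.67 (0.63 to 0.76, n = 6), above every mouse of that group (-0.28 to 0.56). Those of 28 µmol/kg RSG averaged 0.27 (0.22 to 0.33, n = 6). The dimmer sequence gave 0.66, 0.50 and 0.54 with RSG and 0.45, 0.47 and 0.77 with S, and was above background in the mouse channel on 34 and in the pool channel on 24 of 72 liver arrays.

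Lass4, a ceramide synthase that prefers long acyl chains, fell in IAT as well. RSG mice lay between -0.77 and -0.15 (median -0.43), between -0.79 and -0.45 (median -0.66) and between -0.93 and -0.50 (median -0.76). S mice lay between -0.70 and -0.33 (median -0.48), between -0.73 and -0.50 (median -0.68) and between -1.34 and -0.61 (median -0.72). All 36 mice were below the pool, and neighbouring doses overlapped. The 28 µmol/kg RSG mean of -0.46 had adjusted p = 0.088 when scan day was a block. The means of -0.46, -0.63 and -0.74 with RSG and -0.50, -0.64 and -0.88 with S had adjusted p between 2.3e-11 and 2.5e-05 (limma). A second sequence of the same transcript gave -0.57, -0.73 and -0.81 with RSG and -0.59, -0.79 and -0.90 with S, and the dimmest, from another transcript, gave -0.04 and -0.15 at 28 µmol/kg RSG and S (adjusted p = 0.75 and 0.15) and -0.59 to -0.34 at the upper doses. In liver the values were near the pool, 0.03, 0.07 and 0.10 with RSG and 0.00, -0.01 and -0.13 with S, of which both 280 µmol/kg groups passed the test (adjusted p = 0.028 and 0.0023). The RSG call was lost without mouse 1, 2 or 3 (0.08, 0.08 and 0.09, adjusted p = 0.096, 0.10 and 0.065), and the liver means at 28 and 280 µmol/kg RSG and 28 µmol/kg S were -0.15, -0.01 and -0.15 with the mouse in Cy5 only and 0.22, 0.21 and 0.16 with the mouse in Cy3 only.

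Lass2, the most widely expressed ceramide synthase, had the smallest IAT means of these 3 genes. In liver it was lower in all 36 mice, with means of -0.16, -0.14 and -0.14 with RSG (adjusted p = 3.2e-05, 1.5e-04 and 2.5e-04) and -0.07, -0.07 and -0.22 with S (adjusted p = 0.046, 0.034 and 5.7e-08). Repeat hybridisations of 28 µmol/kg liver RNA averaged -0.04 with RSG and 0.04 with S (n = 6 each), the latter on the other side of the pool from the mice. In IAT, Lass2 was -0.03, 0.10 and 0.09 with RSG and 0.00, 0.04 and 0.12 with S, of which 84 and 280 µmol/kg RSG and 280 µmol/kg S passed the test (adjusted p = 0.017, 0.020 and 0.0030). With the mouse in Cy3 only, these 3 means were 0.01, 0.02 and 0.03 and none was called. Most of the small calls were lost on leaving out any 1 of several mice. In IAT these were mouse 1 or 4 at 84 µmol/kg RSG (0.09 and 0.08 without them, adjusted p = 0.052 and 0.068) and mouse 5 or 6 at 280 µmol/kg RSG (0.07 and 0.08, 0.13 and 0.080). In liver they were any of mice 1 to 5 at 28 µmol/kg S (-0.08 to -0.06 without 1 of them, adjusted p = 0.051 to 0.13) and mouse 1, 3 or 4 at 84 µmol/kg S (-0.07, -0.05 and -0.07, 0.079, 0.17 and 0.064).

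**Figure D4:**
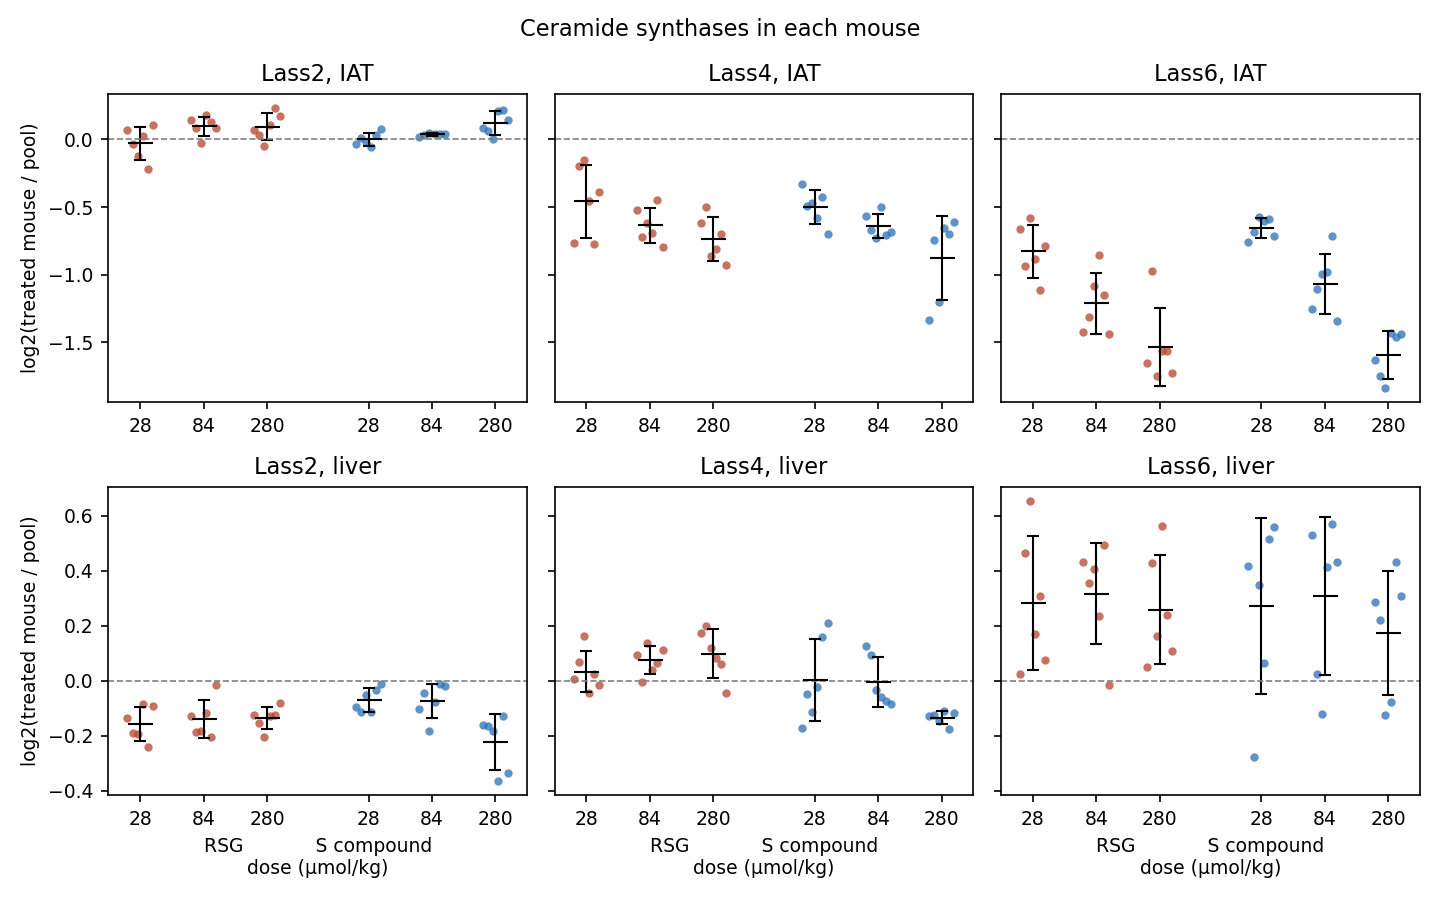
Log2 of treated mouse over pool for Lass2, Lass4 and Lass6 in IAT (top) and liver (bottom), by dose of RSG and of S; points are mice, bars are mean ± SD (n = 6), and the line at 0 is the pool. Lass6 and Lass4 lie below 0 in every IAT mouse, with Lass6 means down to -1.59, while liver means of these genes stay between -0.22 and 0.32.

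Degs1 was slightly higher in liver. The liver means were 0.10, 0.13 and 0.11 with RSG and 0.11, 0.15 and 0.20 with S (adjusted p between 1.2e-07 and 0.0017), with 36 of 36 livers above the pool. Its IAT means were -0.05, -0.05 and -0.23 with RSG and 0.15, 0.10 and -0.11 with S, and those at 280 µmol/kg RSG and at 28 and 280 µmol/kg S passed the test (adjusted p = 5.2e-05, 0.0060 and 0.029). The single dye orientations lay on either side of the balanced means here too: the liver means were between -0.12 and -0.02 with the mouse in Cy5 only and between 0.32 and 0.41 with the mouse in Cy3 only. The IAT call at 280 µmol/kg S was lost without mouse 1, 2, 3 or 6 (-0.11, -0.10, -0.08 and -0.11, adjusted p = 0.055, 0.075, 0.14 and 0.053), and 84 µmol/kg S was called without mouse 1 (0.12, 0.048).

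Counted over the 9 genes tested in IAT, at 28, 84 and 280 µmol/kg RSG, 6, 6 and 7 differed from the pool at an adjusted p under 0.05, where 46.9, 65.7 and 67.0% of all sequences did. With S the counts were 7, 6 and 8 of 9, where 47.6, 55.7 and 74.7% of all sequences did. In liver, with Sptlc3 left out as well, 7, 7 and 7 of 9 genes differed with RSG (59.4, 57.7 and 51.9% of all sequences) and 6, 7 and 7 of 9 with S (52.2, 55.3 and 66.9%). Much of the array was called too, and nothing about the set is read from these counts. Summed over the 3 doses, and with Sptlc3 counted in liver, the RSG counts of 19 of 27 in IAT and 24 of 30 in liver were 10 and 14 with scan day as a block. Under the stricter rule of the methods, which asks for a fold change of 1.3 or more and an unadjusted p below 0.001, the counts were 6 of 27 with each compound in IAT and 6 of 30 with each in liver. These liver sums hold calls of Sptlc3, which is described here with no test, so they serve only to compare settings. The median of the 9 genes at 280 µmol/kg was -0.09 with RSG and -0.11 with S in IAT, where all sequences had 0.04 and 0.06. In liver the median of the 9 genes was 0.10 with RSG and 0.06 with S, where all sequences had -0.03 and -0.05.

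**Figure D5:**
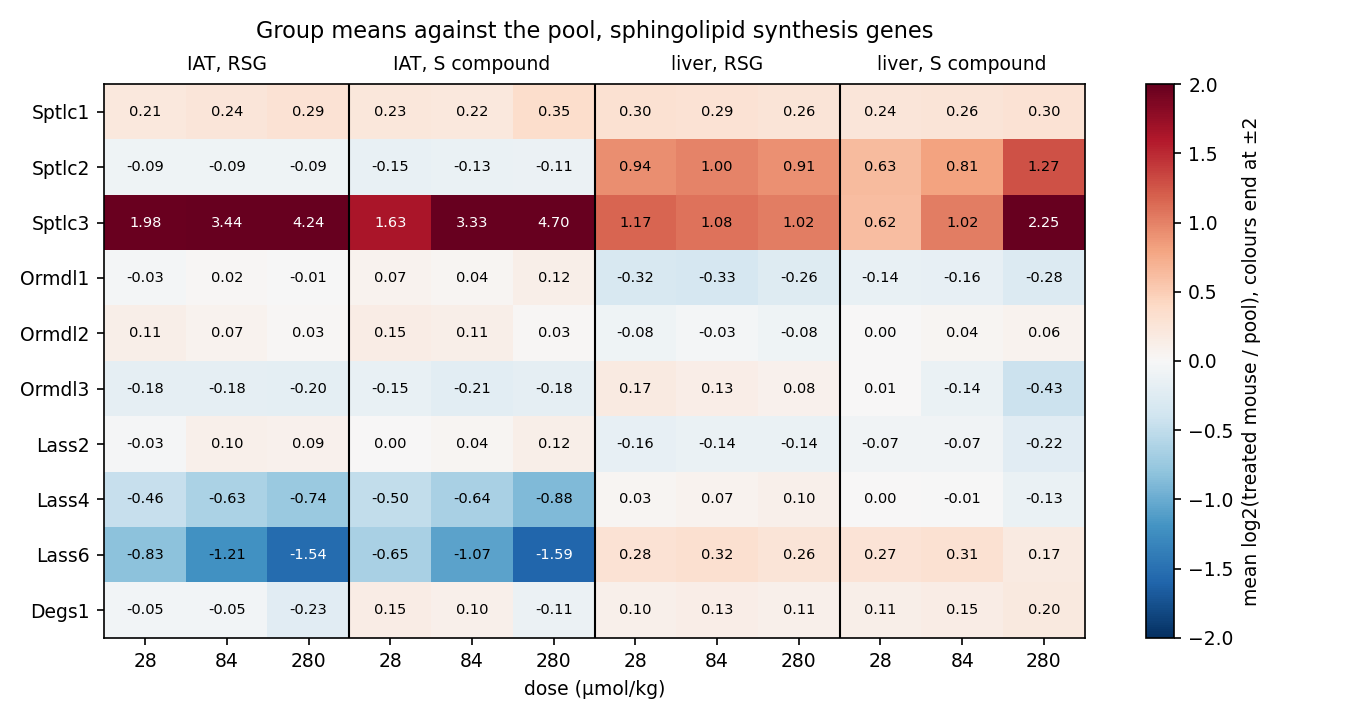
Heat map of the group means of the 10 genes, log2 of treated mouse over pool, for IAT and liver, RSG and S, at 28, 84 and 280 µmol/kg; colours end at 2 in either direction, and printed numbers are the means. Sptlc3 (up to 4.70) and Lass6 (down to -1.59) stand out in IAT, and Sptlc2 and Sptlc3 in liver.

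The high dose was set against the low dose to ask which genes followed the dose, a contrast in which the pool cancels. In IAT, 2 of 9 genes differed between 280 and 28 µmol/kg RSG (25.4% of all sequences), namely Lass6 (-0.71, 95% interval -0.95 to -0.47, adjusted p = 2.9e-05) and Degs1 (-0.18, -0.31 to -0.05, adjusted p = 0.041). The Lass6 difference was -0.57 with scan day as a block (adjusted p = 0.15). For S, 3 of 9 differed (43.5%): Lass6 (-0.94, -1.18 to -0.70, adjusted p = 1.2e-07), Lass4 (-0.38, -0.61 to -0.15, adjusted p = 0.0076) and Degs1 (-0.27, -0.40 to -0.13, adjusted p = 0.0012). In IAT the S 280 µmol/kg arrays shared no scan day with another group, so dose and scan day cannot be told apart there. Sptlc3 was 2.26 higher at 280 than at 28 µmol/kg RSG and 3.08 higher with S, as a description. The RSG difference of Degs1 was lost without RSG 28 µmol/kg mouse 1, 2, 4 or 6 (-0.17, -0.16, -0.17 and -0.14) or RSG 280 µmol/kg mouse 2 or 3 (-0.13 and -0.16), with adjusted p between 0.065 and 0.12. Without RSG 28 µmol/kg mouse 1 or 5 or RSG 280 µmol/kg mouse 2, on the other hand, the Lass4 difference of -0.28 (adjusted p = 0.066) was called, at -0.34, -0.34 and -0.33 (adjusted p = 0.025, 0.025 and 0.031). Other IAT dose differences that passed on leaving out 1 mouse were those of Lass2 with RSG (0.14 to 0.15 without RSG 28 µmol/kg mouse 1 or 6 or RSG 280 µmol/kg mouse 2 or 3) and with S (0.13 to 0.14 without S 28 µmol/kg mouse 6 or S 280 µmol/kg mouse 2 or 3). Those of Ormdl2 with S (-0.15 and -0.17 without S 28 µmol/kg mouse 4 or S 280 µmol/kg mouse 3) and of Sptlc1 with S (0.17 without S 28 µmol/kg mouse 5) passed likewise, with adjusted p between 0.013 and 0.045 over these 10 cases.

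In liver, 0 of 9 genes differed between 280 and 28 µmol/kg RSG (0.0119% of all sequences, limma), with Sptlc2 at -0.03 (95% interval -0.19 to 0.14), and 0 of 9 had an unadjusted p under 0.05. Over the same range of S, 3 of 9 differed (29.5% of all sequences). Sptlc2 was 0.64 higher (0.47 to 0.80, adjusted p = 2.8e-07). Sptlc3, as a description, differed by -0.15 with RSG and 1.63 with S, and by 0.02 and 0.72 with normexp and loess. Ormdl3 was lower (-0.44, -0.56 to -0.32, adjusted p = 1.1e-06), as was Lass2 (-0.15, -0.24 to -0.07, adjusted p = 0.0053). With scan day as a block the S difference of Sptlc3 was 0.79 and that of Lass2 -0.16 (adjusted p = 0.24), and Sptlc2 kept its call at 0.66 (0.0031). Within the scan day that held 4 S 280 and 3 S 84 µmol/kg livers, Sptlc2 averaged 1.18 and 0.83, Sptlc3 1.94 and 1.20, and Ormdl3 -0.49 and -0.12. The differences of Lass4 (-0.17 and -0.16 without S 28 µmol/kg mouse 1 or 3) and Degs1 (0.10 without S 280 µmol/kg mouse 3) passed on leaving out 1 mouse (adjusted p = 0.015, 0.029 and 0.049).

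RSG and S were compared at equal molar doses, 27 pairs of group means in each tissue, with Sptlc3 left out, which share the pool but not the mice. No scan day held both compounds at the same dose in IAT, or in liver at 28 or 84 µmol/kg. Compound and scan day cannot be told apart directly there. In IAT, 0 of 9 genes differed at 28, 84 or 280 µmol/kg, where 0.00649, 2.15 and 1.57% of all sequences did (limma). At an unadjusted p under 0.05 there were 2, 1 and 1 of 9 genes at these doses, Degs1 and Ormdl1. At 280 µmol/kg the difference of Lass6 was 0.05 (95% interval -0.19 to 0.29), that of Lass4 0.14 (-0.09 to 0.37), and that of Ormdl1 -0.13 (-0.21 to -0.05, adjusted p = 0.075, and -0.16 with 0.043 without S 280 µmol/kg mouse 2). In liver, 0, 1 and 4 of 9 genes differed at 28, 84 and 280 µmol/kg, where 0.915, 1.86 and 28.6% of all sequences did, and 4 had an unadjusted p under 0.05 at the lowest dose. At 280 µmol/kg, RSG livers were lower than S livers in Sptlc2 (-0.35, -0.52 to -0.19, adjusted p = 9.1e-04) and Ormdl2 (-0.15, -0.26 to -0.04, adjusted p = 0.035). They were higher in Ormdl3 (0.51, 0.39 to 0.63, adjusted p = 1.0e-07) and Lass4 (0.23, 0.12 to 0.34, adjusted p = 0.0011). At 84 µmol/kg the difference was that of Ormdl3 (0.27, 0.14 to 0.39, adjusted p = 0.014), which was -0.05 with scan day as a block. Within the scan day that held 2 livers of each 280 µmol/kg group, RSG and S averaged 0.88 and 1.43 for Sptlc2, 1.00 and 2.88 for Sptlc3, and 0.01 and -0.29 for Ormdl3. The Sptlc3 difference at 280 µmol/kg, as a description, was -1.23, and -0.62 with normexp and loess. The Ormdl2 difference was lost on leaving out RSG 280 µmol/kg mouse 2, 3, 4 or 5 or S 280 µmol/kg mouse 1, 2, 3 or 4 (-0.15 to -0.13, adjusted p = 0.052 to 0.084), and was -0.05 with scan day as a block (0.73), where that of Lass4 was 0.17 (0.16). A difference of -0.11 in Degs1 passed without RSG 280 µmol/kg mouse 6 or S 280 µmol/kg mouse 3 (adjusted p = 0.044 and 0.043). At 28 µmol/kg, Sptlc2 differed by 0.31 (0.14 to 0.47, adjusted p = 0.053), and by 0.36 without RSG 28 µmol/kg mouse 1 (adjusted p = 0.015).

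The tissues were compared by the difference of their ratios, each to the pool of its own tissue. The pools do not cancel here, and the p values hold no spread between the mice of either pool. The methods, which describe the RSG mice, took both tissues from each mouse, but whether equal numbers mark the same mouse is not given, so the fit held the tissues as separate samples. IAT minus liver was called for 8, 7 and 7 of 9 genes with RSG at 28, 84 and 280 µmol/kg (51.9, 61.5 and 61.5% of all sequences) and for 5, 5 and 7 of 9 with S (43.7, 52.6 and 73.6%), shares near those of the whole array with S. At 280 µmol/kg, Lass6 differed by -1.80 with RSG (95% interval -2.06 to -1.54, adjusted p = 1.1e-18) and by -1.76 with S (-2.02 to -1.51, 7.7e-19), having fallen in IAT and not in liver. Sptlc2 differed by -1.0 (-1.13 to -0.87, adjusted p = 2.2e-20) and by -1.38 (-1.51 to -1.25, 2.5e-27), having risen in liver. Lass4 differed by -0.84 (-1.01 to -0.66) and -0.74 (-0.92 to -0.56). Ormdl3 was on opposite sides with the compounds, at -0.28 with RSG (-0.44 to -0.13, adjusted p = 0.0011) and 0.25 with S (0.10 to 0.40, 0.0029), and these were -0.18 and 0.17 with scan day as a block (0.17 and 0.086). Calls of small differences were lost on leaving out 1 mouse number in both tissues: at 28 µmol/kg RSG, Degs1 without mouse 5 (-0.11, adjusted p = 0.072) and Lass2 without mouse 1 or 6 (0.11 each, 0.057 and 0.050). At 28 µmol/kg S it was Ormdl2 without mouse 2 or 5 (0.14 and 0.13, 0.058 and 0.070), and at 84 µmol/kg S Lass2 without mouse 1, 3 or 4 (0.11, 0.09 and 0.11, 0.066, 0.14 and 0.068). At 280 µmol/kg RSG, Ormdl2 was called without mouse 2 (0.14, 0.026). For Sptlc3, as a description, IAT minus liver was 0.81, 2.36 and 3.22 with RSG and 1.00, 2.31 and 2.45 with S at 28, 84 and 280 µmol/kg. Sptlc1 was the gene with no call in any of the 6 tissue comparisons, where its differences lay between -0.09 and 0.06 and the intervals between -0.21 and 0.18.

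The remaining sphingolipid genes were followed in 5 lists of 52 genes, of which 49 were tested in IAT and 44 in liver. In IAT at 280 µmol/kg, 12 were higher and 27 lower with RSG, where 37.1 and 29.8% of all sequences were, and 13 were higher and 27 lower with S (42.7 and 32.0%). Their median was -0.22 with RSG and -0.20 with S. In liver 13 were higher and 15 lower with RSG (22.1 and 29.8% of all sequences) and 17 higher and 20 lower with S (28.8 and 38.1%), with medians of 0.00 and -0.05.

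At 280 µmol/kg, 37.1% of all IAT sequences were higher and 29.8% lower with RSG, and 42.7 and 32.0% with S. Of the list of other ceramide synthesis genes, 0 of 6 were higher and 3 lower in IAT at 280 µmol/kg RSG, and 0 higher and 5 lower with S. Degs2, which adds the hydroxyl group of phytoceramide, was lowest, at -4.17 ± 0.37 with RSG and -4.39 ± 0.17 with S (SD, n = 6 each; adjusted p = 3.9e-12 and 7.5e-13). Its normalised log2 channel levels lay less far apart, at 6.70 in mice and 9.85 in the pool with RSG and 6.80 and 9.89 with S. Kdsr, the reductase of the step after serine palmitoyltransferase, was -0.38 ± 0.11 with RSG and -0.27 ± 0.18 with S in IAT. In liver it was 0.81 ± 0.43 and 1.43 ± 0.38 (adjusted p = 9.4e-07 and 2.2e-12), higher than the pool in all 12 mice.

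Genes of glycosphingolipid synthesis were 1 higher and 5 lower of 8 in IAT with RSG, and 3 higher and 5 lower with S. Of all IAT sequences, 37.1% were higher and 29.8% lower with RSG, and 42.7 and 32.0% with S. Gal3st1, which makes sulfatide, was -2.53 ± 0.32 with RSG and -2.63 ± 0.41 with S in IAT, where the mouse channel was above background on 1 and 5 of 12 arrays and the pool on 12 of 12. Its normalised log2 channel levels there lay less far apart, at 6.56 in mice and 7.52 in the pool with RSG and 6.68 and 7.45 with S. In liver Gal3st1 was 1.55 ± 0.25 and 2.02 ± 0.39 (adjusted p = 5.3e-13 and 1.6e-16). Ugcg, the glucosylceramide synthase, was likewise lower in IAT (-0.53 ± 0.11 and -0.68 ± 0.10) and higher in liver (0.46 ± 0.19 and 0.50 ± 0.19). Ugt8a, the galactosylceramide synthase, was -1.06 ± 0.41 and -0.97 ± 0.53 in IAT, and B4galnt1, a ganglioside synthase, -0.13 ± 0.17 and -0.43 ± 0.15 in liver.

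Shares over all IAT sequences were 37.1% higher and 29.8% lower with RSG, and 42.7 and 32.0% with S. Genes of breakdown were 4 higher and 12 lower of 16 in IAT with RSG, and 3 higher and 11 lower with S. The alkaline ceramidase Acer2 was among the higher ones (0.83 ± 0.11 and 0.95 ± 0.22), and was higher in liver too (0.99 ± 0.22 and 0.47 ± 0.17). Gm2a, a lysosomal activator of ganglioside breakdown, fell in IAT (-0.62 ± 0.08 and -0.65 ± 0.16). In liver, 6 of 15 rose and 5 fell with RSG (22.1 and 29.8% of all sequences), and 7 rose and 6 fell with S (28.8 and 38.1%). Arsa was 0.62 ± 0.22 and 0.36 ± 0.10 there, and Gla -0.53 ± 0.16 with RSG and 0.10 ± 0.14 with S (adjusted p = 0.13). Genes of sphingosine 1-phosphate and ceramide 1-phosphate were 1 higher and 5 lower of 11 in IAT with either compound: the kinase Sphk2 was 0.53 ± 0.13 and 0.63 ± 0.12, the phosphatase Sgpp2 -2.66 ± 0.50 and -2.45 ± 0.54, and Cerk -0.63 ± 0.17 and -0.43 ± 0.18. Sgpp2 was above background in the mouse channel on 5 and 6 of 12 arrays in these groups. Its normalised log2 channel levels lay less far apart than the ratios, at 6.61 in mice and 7.74 in the pool with RSG and 6.73 and 7.62 with S. In liver the receptors S1pr5 (-0.80 ± 0.18 and -1.38 ± 0.31) and S1pr1 (-0.62 ± 0.23 and -0.62 ± 0.35) and the phosphatase Sgpp1 (-0.17 ± 0.03 and -0.32 ± 0.07) were lower, among 4 and 5 of 9.

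Genes of sphingomyelin turnover were 6 higher and 2 lower of 8 in IAT with RSG, and 6 higher and 1 lower with S, where 37.1 and 42.7% of all sequences were higher. In liver they were 1 higher and 4 lower of 8 with RSG and 2 higher and 5 lower with S, where 29.8 and 38.1% of all sequences were lower. The sphingomyelinase Smpd2 was 0.43 ± 0.22 and 0.49 ± 0.11 in IAT. In liver it was -0.29 ± 0.07 with RSG (adjusted p = 2.7e-07) and -0.07 ± 0.13 with S (adjusted p = 0.12). The ceramide transporter Cert1 was 0.20 ± 0.05 and 0.12 ± 0.05 in liver, and Samd8, a ceramide phosphoethanolamine synthase, -0.36 ± 0.12 and -0.33 ± 0.08.

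Markers of several cell types moved with the compounds in IAT. At 280 µmol/kg, 6 of 6 brown adipocyte markers were higher, with a median of 2.40 with RSG and 2.91 with S. Their summed signal was 183689 to 419199 in RSG mice and 47869 to 60324 in the pool on the same arrays, and 327912 to 762132 in S mice and 54845 to 79046 in the pool. Skeletal muscle markers were lower, 7 of 10 with RSG and 10 of 10 with S (medians -1.59 and -3.06), as were 7 and 9 of 12 epithelial and keratinocyte markers (medians -1.42 and -2.60), 6 and 6 of 6 fibroblast markers (-0.82 and -0.83), 6 and 6 of 7 macrophage markers (-0.55 and -0.51) and 4 and 5 of 6 endothelial markers (-0.34 and -0.31). Adipocyte markers were 3 higher and 1 lower of 8 with RSG and 5 higher and 1 lower with S. Of 7 lymphocyte markers, 2 were higher with RSG and 2 higher and 4 lower with S. Of 7 hepatocyte markers, 1 was higher and 3 lower with RSG and 1 higher and 2 lower with S. Of all IAT sequences, 37.1% were higher and 29.8% lower with RSG, and 42.7 and 32.0% with S. In liver, 7 of 7 skeletal muscle markers were lower with each compound, 5 of 7 adipocyte markers were higher with each compound, with Lep above background on 0 of 72 liver arrays, and 3 of 4 brown adipocyte markers were higher. Of 8 hepatocyte markers in liver, 3 were higher and 4 lower with RSG and 2 higher and 5 lower with S (medians -0.21 and -0.42). Endothelial markers were higher in liver, 5 of 6 with RSG and 3 of 6 with S, and of 10 epithelial and keratinocyte markers 2 were higher with RSG and 6 higher and 1 lower with S. Of 6 liver fibroblast markers, 3 were higher with RSG and 3 higher and 3 lower with S. For 7 macrophage markers this was 3 higher, and 2 higher and 1 lower. For 6 lymphocyte markers it was 3 higher, and 2 higher and 2 lower. Of all liver sequences, 22.1% were higher and 29.8% lower with RSG, and 28.8 and 38.1% with S. The part of these shifts in the values of the sphingolipid genes was not tested.

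The genes whose IAT values ran most like those of Sptlc3 were ranked over the 36 IAT mice among 15651 genes. Highest were Chchd10 (r = 0.953), Ephx2 (0.948), Samm50 (0.933), Neurl2 (0.932) and Ndor1 (0.925), and lowest were Ankrd29 (-0.934), Matn2 (-0.928), Htra1 (-0.928), Itgb5 (-0.926) and Mxra8 (-0.917). Chchd10, Samm50 and Ndor1 encode proteins of mitochondria or of electron transfer, and Ephx2 a lipid epoxide hydrolase, while Matn2 and Htra1 encode a matrix protein and a secreted protease. The mice share dose groups and the pool, and within groups r was 0.69, 0.53, 0.49, 0.72 and 0.46 for the first 5 and -0.55, -0.62, -0.41, -0.13 and -0.13 for the others. Among the set itself, Lass6 had r = -0.83 with Sptlc3 in IAT (-0.06 within groups). In liver Sptlc2 had 0.80 (0.62 within groups) and Sptlc1 0.57 (0.66 within groups). The lowest liver values within groups were -0.49 for Ormdl2 and -0.44 for Ormdl1. Liver Sptlc3 was above background in the mouse channel on 44 of 72 arrays and in the pool channel on 15. Its liver r are thus a description only, and other genes were not ranked there.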

How the data were processed

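RNA of liver and IAT from 72 treated mouse tissues was measured on 144 2-colour 60-mer arrays (45018 spots, 41174 sequences), and 12 technical repeats of liver RNA were used only to describe their spread and mean. The authors scanned the arrays and extracted them with Agilent Feature Extraction 9.5 (submitters' processing notes), with local background subtraction and Lowess dye normalisation, and deposited a log10 ratio of Cy5 over Cy3, processed and raw intensity values of each channel, and 0 or 1 marks for each spot. A deposited table of log10 ratios, with its direction found by comparison with the scanner files, served as an alternative. No column of another series was found (0).

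The log10 ratio was turned to treated mouse over pool by the dye orientation of each array, put on the log2 scale and averaged over the dye-swap pair, so that each mouse is 1 replicate. Within pairs the unturned ratios had r between -0.948 and -0.635. Control spots and outlier marks were left out. A sequence was tested where the mouse channel was well above background on at least a share of 0.5 of the arrays of any group, or the pool channel on that share of all arrays of the tissue, which left 30795 in IAT, 25254 in liver and 24744 in both. All 36 mice of a tissue (72 tissue samples for differences between tissues, not taken as paired) entered 1 limma fit (limma 3.58.1, R 4.3.3) with group means as coefficients. P values were two-sided and adjusted by Benjamini-Hochberg over all sequences tested, and an adjusted p under 0.05 is a call. The methods' error-weighted model was not run; their thresholds (p under 0.001, fold change at least 1.3) were tried as an alternative. Channel levels and 1 alternative used normexp (offset 50) and loess. The labels give the mice of a group as biological replicates. The number of arrays limits the precision. The scripts were tested on simulated data. Tables and figures used Python 3.11.15, numpy 2.4.6, pandas 2.3.3 and matplotlib 3.10.9.

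The text names all 10 genes by their brightest sequence, at most 3 genes per pathway list and tissue with the smallest p at 280 µmol/kg RSG among those called, and the 5 genes with the highest and lowest r to Sptlc3. A gene that this rule also names is not reported here. The genes, lists and tests were chosen with earlier results of these data known. Of the sequences, 23374 matched a RefSeq symbol by accession (GRCm38.p6). Probe positions are those of the array annotation (mm8). The alternatives were the series table, normexp and loess, no filter on dim sequences, the mean of all sequences of a gene, each dye orientation alone, the replicate number, scan day or slide as a block, the methods' thresholds, and leaving out each mouse. Scan day and slide as random blocks, and values within scan days, were chosen after seeing the data.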

Additional observations from a re-analysis of the deposited data

Results flagged for a closer look

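Of the 120 groups of 6 mice looked at, 10 held a mouse at one end whose gap to the next passed Dixon's critical value for its group, where chance gives about 1 in 20. In IAT these were Sptlc1 in mouse 5 at 28 µmol/kg RSG (0.43), mouse 2 at 280 µmol/kg RSG (0.12) and mouse 5 at 28 µmol/kg S (0.46), Lass6 in mouse 2 at 280 µmol/kg RSG (-0.97) and Degs1 in mouse 4 at 28 µmol/kg S (0.014). RSG 280 µmol/kg mouse 2 was thus apart for both Sptlc1 and Lass6, nearer to the pool in each. In liver they were Sptlc1 in mouse 1 at 84 µmol/kg RSG (0.51) and mouse 1 at 84 µmol/kg S (0.074), Ormdl2 in mouse 1 at 84 µmol/kg S (0.24), Ormdl3 in mouse 3 at 28 µmol/kg RSG (0.45) and Sptlc3 in mouse 1 at 84 µmol/kg RSG (2.30).

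At 280 µmol/kg the effect in IAT differed from that in liver (limma, adjusted p under 0.05) for 7 of 9 genes with both compounds. Of all sequences, 61.5% differed with RSG and 73.6% with S, so nothing about the set is read from this count. IAT minus liver was -1.80 with RSG and -1.76 with S for Lass6, -1.0 and -1.38 for Sptlc2, and -0.84 and -0.74 for Lass4. It was -0.34 and -0.31 for Degs1, 0.23 and 0.34 for Lass2, 0.26 and 0.40 for Ormdl1, and -0.28 and 0.25 for Ormdl3. The causes were not tested.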

How the results depend on the processing

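Of 5080 values of single genes under the alternatives, 4786 were tallied as unchanged, 170 lost a call and 76 gained one. Another 33 turned sign, which for a tested value was tallied only where it was called before or after. Sign turns between values with no call stand among the unchanged. A further 15 values without a test moved by over 1 SD. Liver Sptlc3 enters this tally with its tests, so the tally serves only to compare settings. The causes were not tested. Counts are called genes summed over doses, with Sptlc3 counted in liver. Sptlc3 is described with no test there, so the liver counts serve only to compare settings. With scan day as a block they were 10 of 27 for RSG against the pool in IAT (19 before), 0 for 280 against 28 µmol/kg RSG in IAT (2), 14 of 30 for RSG in liver (24), 2 for 280 against 28 µmol/kg S in liver (4) and 3 of 30 for RSG against S in liver (6). At the methods' thresholds, which are stricter by construction, they were 6 each for RSG and S against the pool in IAT (19 and 21) and in liver (24 and 23), 1 each for 280 against 28 µmol/kg RSG and S in IAT (2 and 3), 2 for RSG against S in liver (6), and 9 and 10 for IAT against liver with RSG and S (22 and 17). For 280 against 28 µmol/kg in IAT, RSG had 1 with the series table, 4 with scan day as a random block and 1 with slide as a random block, and S had 5 with scan day as a random block; RSG against S in IAT had 1 with that block (0 before).

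The replicate numbers were not taken to pair the samples: same-numbered IAT and liver samples had r between -0.149 and 0.369 (median 0.138), with 21 of 36 over 0.1. Both tissues came from the same RSG mice per the methods, but which numbers belong to 1 mouse is not given. With the replicate block the count for 280 against 28 µmol/kg S in IAT was 5 (3 without it), 26 for RSG in liver (24), and 24 and 18 for IAT against liver with RSG and S (22 and 17). Leaving out 1 mouse gave 16 to 19 for RSG and 19 to 22 for S against the pool in IAT, 22 to 26 and 20 to 24 in liver, 1 to 3 and 3 to 5 for 280 against 28 µmol/kg RSG and S in IAT, 0 and 4 to 5 in liver, 0 to 1 and 5 to 7 for RSG against S in IAT and liver, and 21 to 23 and 16 to 17 for IAT against liver with RSG and S.

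The tallied sign turns were as follows, and why single dye orientations differed from the balanced means was not tested. With the mean of all its sequences, Sptlc2 in IAT was 0.025, 0.11 and 0.081 with RSG and 0.045 and 0.15 at 84 and 280 µmol/kg S. With the mouse in Cy3 only, Ormdl3 in IAT was 0.048, 0.051 and 0.017 with RSG and 0.011 and 0.049 at 84 and 280 µmol/kg S, and 0.13 in liver at 84 µmol/kg S, and Degs1 in IAT was 0.22, 0.23 and 0.0059 with RSG and 0.14 at 280 µmol/kg S. With the mouse in Cy5 only, Degs1 in IAT was -0.11 and -0.17 at 28 and 84 µmol/kg S, and in liver -0.12, -0.094 and -0.10 with RSG and -0.10, -0.054 and -0.017 with S; liver Ormdl3 was -0.060, -0.12 and -0.16 with RSG and -0.24 at 28 µmol/kg S, and liver Lass4 -0.15 and -0.011 at 28 and 280 µmol/kg RSG and -0.15 at 28 µmol/kg S. With normexp and loess, RSG minus S for Sptlc3 in IAT at 84 µmol/kg was -0.086. With scan day as a block, liver Ormdl3 was -0.061 at 84 µmol/kg RSG and -0.052 for RSG minus S at 84 µmol/kg. Of the 84 columns of the series table, 80 matched their own arrays best; that of IAT 84 µmol/kg S mouse 6 had r = 0.01, and those of 280 µmol/kg S mice 4, 5 and 6 matched mice 6, 4 and 5. Signal over background limited Sptlc3 in liver.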
